A study of Mus musculus with 15 samples.

Results

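Kinesins are motor proteins that walk along or dismantle microtubules, and the mitotic spindle is the microtubule machine that separates chromosomes when a cell divides. The genes described here are every gene whose symbol is Kif with a number and at most 1 further letter, plus 12 spindle and cytokinesis genes chosen by name, from Tpx2 to Anln. This gave 49 of the 24421 gene symbols in the tables, 37 of them kinesins. They were sorted by textbook role into 12 mitotic kinesins, 12 spindle proteins, 13 transport kinesins and 12 other kinesins. RNA was sequenced from an established mouse line of adult bile duct cells (biliary epithelial cells) on a C57BL/6 background. The sample labels name a cell line, the series title an in vitro structure grown in 3D and the design text structures in vivo, so the growth form is not settled. All libraries share the genotype ITR-CreERT2;Klf5flox/flox, an inducible Cre with floxed alleles of the transcription factor gene Klf5, and the labels name neither the promoter that drives the Cre nor the number of clones. Cells received 4-OH tamoxifen, which activates the Cre, or ethanol as the control, and were collected at 12 h (4 tamoxifen and 3 ethanol libraries) and 24 h (4 and 4). Tamoxifen exposure, Cre activity and Klf5 loss cannot be told apart in this contrast. The labels do not say whether libraries came from separate cultures, so the p-values speak of the spread among these libraries alone, and that spread may be technical.

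In a dividing cell, mitotic kinesins push spindle poles apart, depolymerise microtubules at chromosomes, carry chromosome arms and build the midzone where the cell is cut. Their genes are mostly transcribed late in the cell cycle. Transport kinesins instead carry vesicles, mitochondria and ciliary cargo in resting and dividing cells alike. A pair of short promoter elements is known from late cell cycle genes, the CHR (letters TTTGAA), bound by complexes that hold such genes silent or switch them on, and the CCAAT box (letters CCAAT), bound by NF-Y.

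Each time has 1 table of the authors' comparison, with a mean over libraries and a fold, and no value per library. Summed over genes, the normalised counts of an average library came to 13.9 M at 12 h and 11.8 M at 24 h. The targeted gene is given before the members. Klf5 had 266 normalised counts in tamoxifen and 652 in ethanol at 12 h, and 285 in tamoxifen and 938 in ethanol at 24 h, levels computed from the mean and the fold. In the authors' deposited table its log2 fold of tamoxifen over ethanol was -1.29 at 12 h (SE 0.23) and -1.72 at 24 h (SE 0.08). Of the biliary markers, Krt19 and Spp1 were abundant, with means of 23752 and 25377 normalised counts in the authors' deposited table at 12 h. Epcam was low, at 15.7. The hepatocyte factor gene Hnf4a had a mean of 7584 in the same table.

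Promoter stretches of 5 members are printed here because these genes rose at 24 h and because they show the motifs that were searched. RefSeq promoter windows on GRCm38.p6, from 250 bases before to 50 bases after the annotated start, were found for 42 of the 49 members, in 48 windows, and not for Tpx2, Kif20a, Kif13b, Kif19a, Kif21b, Kif5a and Kif5b. The stretches below run 5′ to 3′ on the gene's strand from 110 bases before the start to 25 bases after it, with CHR and CCAAT letters on either strand in capitals. Reverse strand matches read TTCAAA and ATTGG. The RefSeq start of Kif2c lies well inside the gene span that GENCODE gives. So do those of Kif14, Numa1, Kif17, Kif27 and Kif1a, whose windows are counted in the shares below. Kif1a is the transport kinesin whose window holds a CHR. Which start these cells use was not tested.
Kif20b, chr19:34922248-34922382, forward strand: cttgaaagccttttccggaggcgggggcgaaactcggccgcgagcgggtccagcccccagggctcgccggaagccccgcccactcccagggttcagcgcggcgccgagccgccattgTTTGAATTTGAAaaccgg
Kif2c, chr4:117178748-117178882, reverse strand: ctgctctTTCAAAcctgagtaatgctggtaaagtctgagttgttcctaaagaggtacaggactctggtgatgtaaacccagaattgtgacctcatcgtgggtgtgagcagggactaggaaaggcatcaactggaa
Kif11, chr19:37376272-37376406, forward strand: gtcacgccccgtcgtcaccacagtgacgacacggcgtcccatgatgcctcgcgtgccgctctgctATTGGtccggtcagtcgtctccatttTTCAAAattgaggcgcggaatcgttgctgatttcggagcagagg
Hmmr, chr11:40733413-40733547, reverse strand: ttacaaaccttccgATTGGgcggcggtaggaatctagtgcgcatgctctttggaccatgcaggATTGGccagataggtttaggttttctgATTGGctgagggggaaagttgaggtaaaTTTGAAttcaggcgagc
Aspm, chr1:139454663-139454797, forward strand: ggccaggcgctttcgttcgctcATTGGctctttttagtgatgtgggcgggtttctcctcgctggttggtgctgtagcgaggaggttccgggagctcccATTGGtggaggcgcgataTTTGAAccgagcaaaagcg
For contrast, the same stretch is given for a transport kinesin that rose and for an abundant one that did not pass the test.
Kif3c, chr12:3365022-3365156, forward strand: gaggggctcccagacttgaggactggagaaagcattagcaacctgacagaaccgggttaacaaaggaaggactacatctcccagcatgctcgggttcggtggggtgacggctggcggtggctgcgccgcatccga
Kif1c, chr11:70700438-70700572, forward strand: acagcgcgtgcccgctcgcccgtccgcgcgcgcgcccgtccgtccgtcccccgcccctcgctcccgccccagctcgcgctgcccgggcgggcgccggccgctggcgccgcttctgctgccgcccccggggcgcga

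The CHR letters stood in all 5 windows of the mitotic kinesins and spindle proteins that rose at 24 h and have a window. In Kif20b, CHR letters stood side by side, at bases 8 to 13 and 14 to 19 after the start. In Kif11 the CHR lay at -19 to -14 with a CCAAT box at -45 to -41, and Hmmr and Aspm carried a row of CCAAT boxes before a CHR just past the start. Over the classes, the shares are of windows and not of genes. The 13 windows of spindle proteins come from 11 genes, as Ect2 and Prc1 have overlapping windows that hold the same letters. The CHR was found in 9 of 11 windows of mitotic kinesins (81.8%) and in 11 of 13 windows of spindle proteins (84.6%). It was found in 1 of 12 windows of transport kinesins (8.33%), in 2 of 12 of other kinesins (16.7%) and in 17.9% of all 32851 promoter windows of the same length. The CCAAT box was found in 63.6% of windows of mitotic kinesins, 76.9% of spindle proteins, 33.3% of transport kinesins, 33.3% of other kinesins and 37.4% of all promoters. Both motifs together stood in 54.5% of windows of mitotic kinesins, 76.9% of spindle proteins, 0 of 12 of transport kinesins, 16.7% of other kinesins and 6.95% of all promoters.

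A search for letters typical of Krüppel-like factors gave another picture. The CACCC box (CCACCC) was in 27.3% of windows of mitotic kinesins, 30.8% of spindle proteins, 16.7% of transport kinesins and 6 of 12 of other kinesins, beside 31.5% of all promoters. The GC box (GGGCGG) was in 54.5% of windows of mitotic kinesins, 76.9% of spindle proteins, 9 of 12 of transport kinesins and 66.7% of other kinesins, beside 35.7% of all promoters. None of these motifs contains the letters of another, and both strands were searched. A match describes letters and not a bound site.

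**Figure D1:**
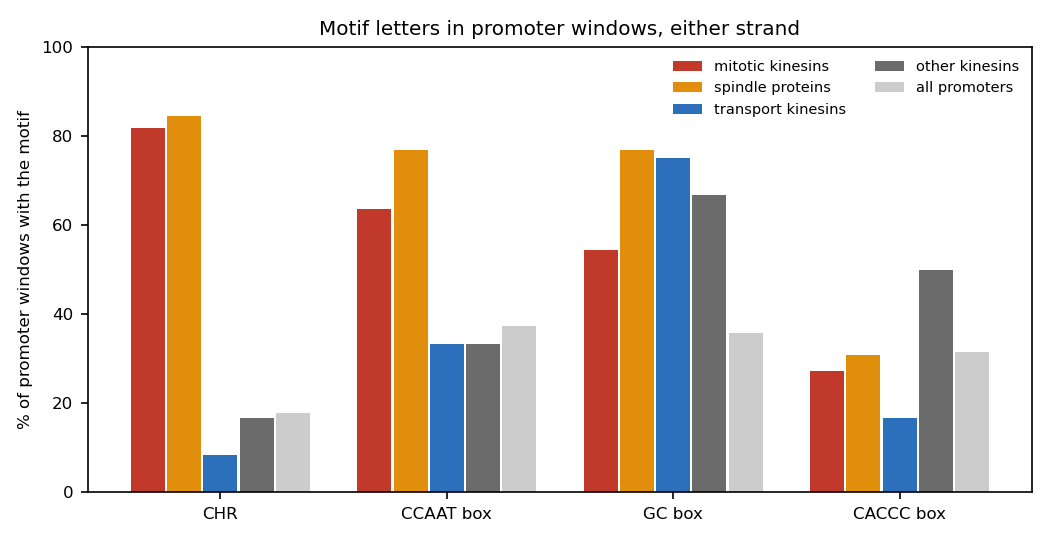
Share of RefSeq promoter windows (percent, vertical axis) that hold each motif on either strand, for the 4 classes and for all promoters. The CHR stands in 81.8% and 84.6% of windows of mitotic kinesins and spindle proteins, against 8.33% of transport kinesins and 17.9% of all promoters.

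The response to tamoxifen was read first at 12 h, where no member passed the test. The authors' deposited table gives 44 members an adjusted p. Of these, 0 were higher and 0 lower at an adjusted p under 0.05 in DESeq2's Wald test, beside 0.215% of all tested genes higher and 0.728% lower, or 0.223% and 0.872% of those averaging 50 or more normalised counts. At an unadjusted p under 0.05, 1 of the 46 members with a p was higher and 0 lower, beside 1.97% and 2.92% of all genes with a p. This count is too small to set apart from those shares. The member was the motor Kif11, which slides spindle poles apart. Kif11 had 1496 normalised counts in tamoxifen and 1252 in ethanol at 12 h. Its log2 fold in the authors' deposited table was 0.26 (SE 0.13), with an adjusted p of 0.84 in the Wald test. At this time 30 of 44 members had a fold above 0 and 14 below, beside 48.6% and 51.4% of all tested genes. The median log2 fold was 0.08 for mitotic kinesins, 0.06 for spindle proteins, 0.06 for transport kinesins and -0.05 for other kinesins (4 folds above 0 and 4 below), beside -0.01 for all tested genes. The 95% intervals at 12 h were wide. That of Kif20a, -0.36 to 0.52, took in its log2 fold of 0.31 at 24 h, so a change of that size could be missed. This did not hold for every member called later. The upper bounds at 12 h were 0.35 for Kif20b, 0.33 for Kif21b and 0.32 for Tpx2, below their log2 folds at 24 h of 0.77, 0.62 and 0.40.

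At 24 h 4 mitotic kinesins and 3 spindle proteins rose, while of the transport kinesins 1 passed the test. Of the 41 members given an adjusted p by the authors' deposited table, 9 rose and 1 fell at an adjusted p under 0.05 in the Wald test. The background in that table was 5.90% of tested genes higher and 6.52% lower, or 6.49% and 7.26% in genes averaging 50 or more normalised counts, a level that all 10 of these members exceed. By class, 4 of 11 tested mitotic kinesins, 3 of 12 spindle proteins, 1 of 12 transport kinesins and 1 of 6 other kinesins rose, and the 1 fall was in the last class. The counts of transport and other kinesins, and the 1 fall, are too small to set apart from the background shares. In bulk RNA, more cells in division and more RNA per cell cannot be told apart.

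The mitotic kinesins that rose were Kif20b, Kif2c, Kif20a and Kif11. Kif20b, a motor of the late steps of cytokinesis at chr19:34922361-34975745, had 377 normalised counts in tamoxifen and 221 in ethanol at 24 h. This was 171% of the ethanol level (95% interval 138% to 212%), and the authors' deposited table gives a log2 fold of 0.77 (SE 0.16, adjusted p 3.07e-05, Wald test). It was the largest fold among the tested mitotic kinesins, spindle proteins and transport kinesins at 24 h, and its SE was 1.67 times that of genes of similar mean. At 12 h the same gene had stood level, at 857 in tamoxifen and 862 in ethanol.

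Kif2c, a microtubule depolymerase that releases wrongly attached chromosomes, lies at chr4:117159639-117182639 and had 164 normalised counts in tamoxifen and 118 in ethanol at 24 h. In the authors' deposited table its log2 fold was 0.48 (SE 0.13, adjusted p 0.00236, Wald test). Kif20a, at chr18:34624613-34633277, brings the chromosomal passenger complex to the spindle midzone and had 459 in tamoxifen and 369 in ethanol. The log2 fold of Kif20a in the authors' deposited table was 0.31 (SE 0.10, adjusted p 0.0159, Wald test). Its exons share 29.3% of their bases with Cdc23 on the opposite strand, and the library kit does not mark strand. Cdc23 itself had a log2 fold of -0.03 (SE 0.07) at 24 h in the authors' deposited table, with 813 in tamoxifen and 832 in ethanol. Kif11, at chr19:37376403-37421859, had 716 normalised counts in tamoxifen and 606 in ethanol, and its log2 fold in the authors' deposited table was 0.24 (SE 0.08, adjusted p 0.0191, Wald test).

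The other tested mitotic kinesins did not pass, and each of them had a fold above 0. Thus 11 of 11 tested mitotic kinesins had a positive fold at 24 h, against 49.9% of all tested genes above 0 and 50.1% below. At an unadjusted p under 0.05, 7 of the 11 were higher and 0 lower, beside 8.91% and 9.08% of all genes with a p. The further 3 were Kif23 (0.20, SE 0.09), Kif14 (0.40, SE 0.20) and Kif18b (0.20, SE 0.10) per the authors' deposited table, with adjusted p of 0.14, 0.19 and 0.20 in the Wald test. Kif23 forms the centralspindlin complex with Racgap1, Kif14 acts in cytokinesis, and Kif18b works at microtubule plus ends. Kif18a, which damps chromosome movements, stood at 0.40 (SE 0.21) per the authors' deposited table, the chromosome arm motors Kif4 and Kif22 at 0.14 and 0.12, and Kif15, a partner of Kif11 in pole separation, at 0.11. Kif4 shares 15.1% of its exon bases with Pdzd11 on the opposite strand and has a processed copy in the tables, so its value is uncertain. Kif2b was at 0 at both times.

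**Figure D2:**
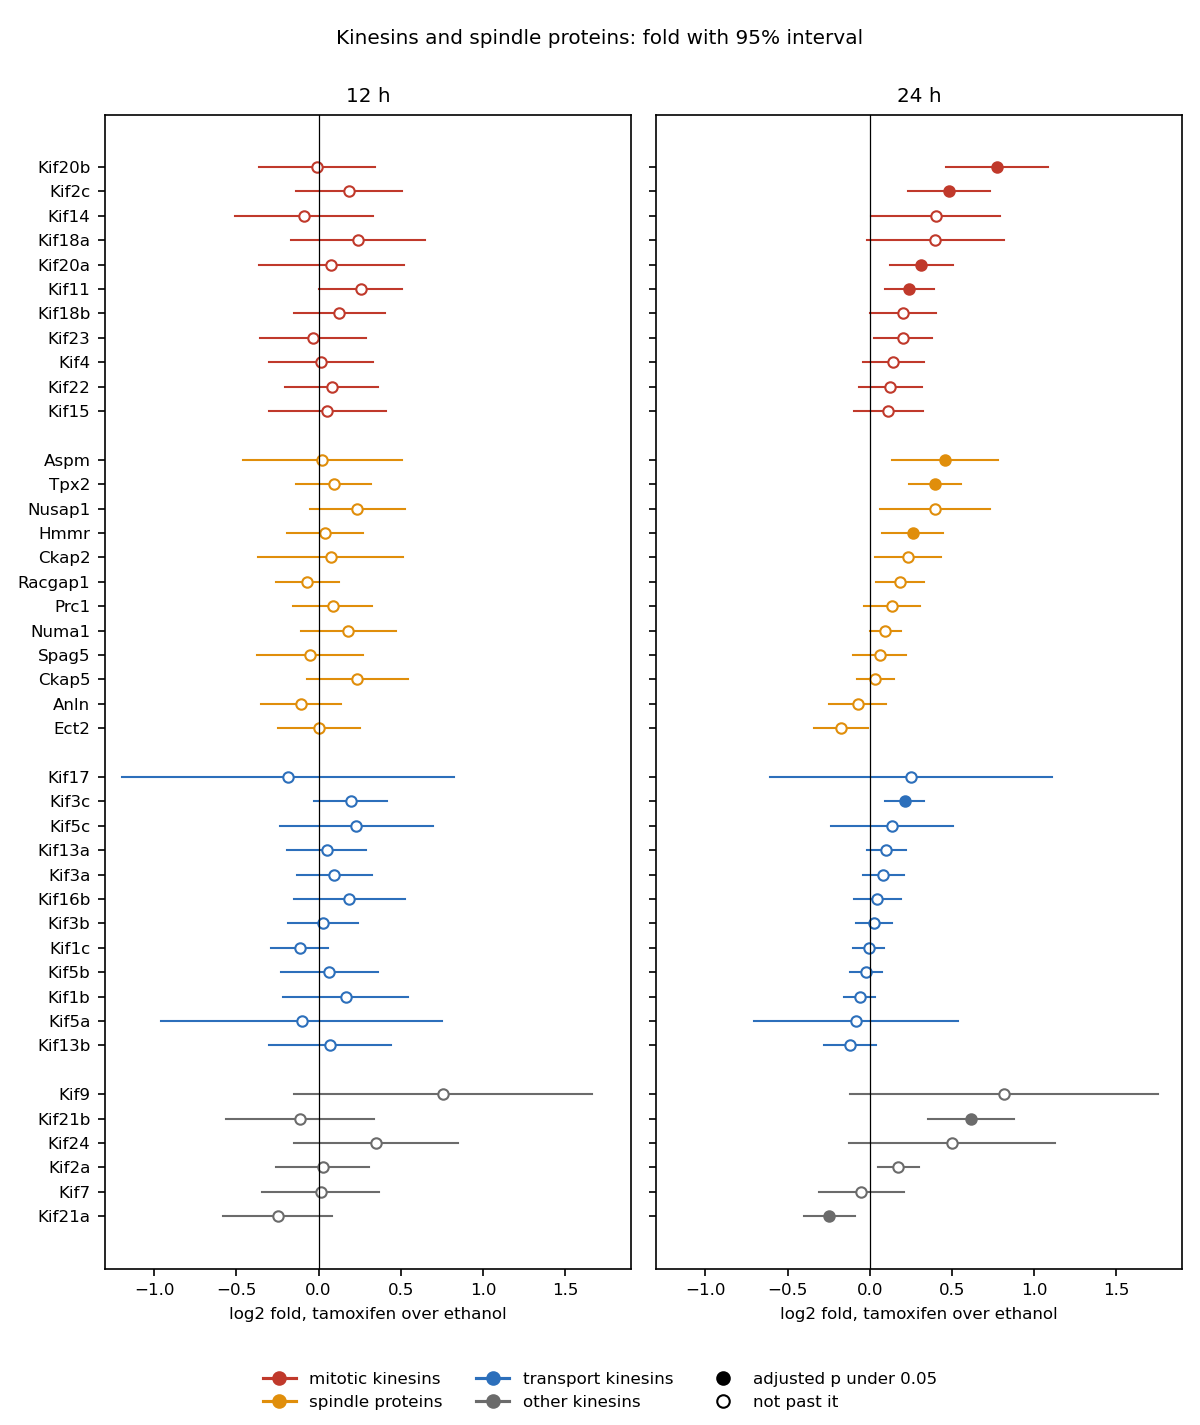
Log2 fold of tamoxifen over ethanol (horizontal axis) at 12 h (left) and 24 h (right) for the 41 members with an adjusted p at both times, by class. Bars are 95% intervals from the authors' standard errors and filled points have an adjusted p under 0.05; 0 points are filled at 12 h and 10 at 24 h.

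Among the spindle proteins Tpx2, Aspm and Hmmr rose. Tpx2 activates Aurora A kinase and seeds spindle microtubules; it lies at chr2:152847964-152895321 and had 964 normalised counts in tamoxifen and 733 in ethanol at 24 h. The log2 fold of Tpx2 in the authors' deposited table was 0.40 (SE 0.08, adjusted p 3.84e-05, Wald test). Aspm, a protein of spindle poles at chr1:139454772-139494091, had 239 in tamoxifen and 174 in ethanol, and in the authors' deposited table a log2 fold of 0.46 (SE 0.17, adjusted p 0.0474, Wald test). Hmmr, which binds spindle microtubules near the poles, lies at chr11:40701395-40733422 and had 437 in tamoxifen and 364 in ethanol. Its log2 fold in the authors' deposited table was 0.26 (SE 0.09, adjusted p 0.0475, Wald test). With the authors' p-values adjusted over every gene that has one, Aspm and Hmmr no longer passed, with an adjusted p of 0.0642 and 0.0643.

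The spindle proteins that did not pass spread to both sides of 0. Nusap1, a microtubule bundler, had 218 normalised counts in tamoxifen and 166 in ethanol at 24 h and a log2 fold of 0.39 (SE 0.17) per the authors' deposited table. Ckap2 (0.23, SE 0.10), Racgap1 (0.18, SE 0.07) and the midzone crosslinker Prc1 (0.13, SE 0.09) stood above 0 in the authors' deposited table. Numa1, which focuses spindle poles with dynein, was at 0.09 (SE 0.05), Spag5 of the kinetochore attachments at 0.06 (SE 0.08) and the microtubule polymerase Ckap5 at 0.03 (SE 0.06) per the authors' deposited table. Ect2 and Anln stood below 0. Ect2, which switches on RhoA at the cleavage furrow, had 926 in tamoxifen and 1047 in ethanol, a log2 fold of -0.18 (SE 0.08, adjusted p 0.16, Wald test) per the authors' deposited table. Anln, the scaffold of the contractile ring, stood at -0.07 (SE 0.09) per the authors' deposited table. The median over the 12 spindle proteins was 0.16, beside 0.00 for all tested genes.

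The abundant transport kinesins lay close to 0 at 24 h with narrow intervals. Kif5b, the widely expressed conventional kinesin, had 6720 normalised counts in tamoxifen and 6827 in ethanol, and the 95% interval of its log2 fold ran from -0.12 to 0.08. Kif1c, a fast vesicle motor, had 3767 in tamoxifen and 3786 in ethanol, with an interval from -0.10 to 0.09. Kif1b, which carries mitochondria and vesicle precursors, had 2167 in tamoxifen and 2261 in ethanol, with an interval from -0.15 to 0.03. For these abundant motors the intervals leave no room for a rise as large as the fold of Kif11.

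Among the Kif3 chains, only Kif3c passed. Kif3a and Kif3b, which drive cargo into cilia, stood at 0.08 (SE 0.06) and 0.03 (SE 0.06) per the authors' deposited table. Kif3c, at chr12:3365132-3406494, had 960 normalised counts in tamoxifen and 827 in ethanol at 24 h, and in the authors' deposited table a log2 fold of 0.21 (SE 0.06, adjusted p 0.00617, Wald test). Its exons share 40.7% of their bases with 1110002L01Rik on the opposite strand, a gene whose log2 fold at 24 h was -0.07 (SE 0.10) per the authors' deposited table. The endosome motor Kif16b (0.04, SE 0.07), Kif13a (0.10, SE 0.06) and Kif13b (-0.12, SE 0.08) did not pass in the authors' deposited table. Kif5a, Kif5c and Kif17, known mainly from neurons, had 1.62, 6.87 and 0.85 CPM, the normalised count scaled to the library total, at 24 h by the authors' deposited table, and their folds did not pass. Their log2 folds at 24 h, by the authors' deposited table, were -0.08 for Kif5a, 0.13 for Kif5c and 0.25 for Kif17, the last with a 95% interval from -0.61 to 1.11. Kif1a had a mean of 2.73 and no adjusted p there.

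Set side by side, the median log2 fold at 24 h was 0.24 over 11 mitotic kinesins and 0.04 over 12 transport kinesins, a gap of 0.20 on the log2 scale. The median over the 6 tested other kinesins was higher than both, at 0.34, over folds from -0.25 to 0.82, so a raised class median was not found in mitotic kinesins alone. The gap between mitotic and transport kinesins at 12 h was 0.01. Mitotic kinesins counted 11 positive and 0 negative folds at 24 h, and transport kinesins 7 positive and 5 negative. No test was made of these class values, since genes are not replicates and the classes were drawn with earlier results of these data known. With Kif2a counted as mitotic and Kif12, Kif21a and Kif21b as transport kinesins, the gap at 24 h was 0.19.

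**Figure D3:**
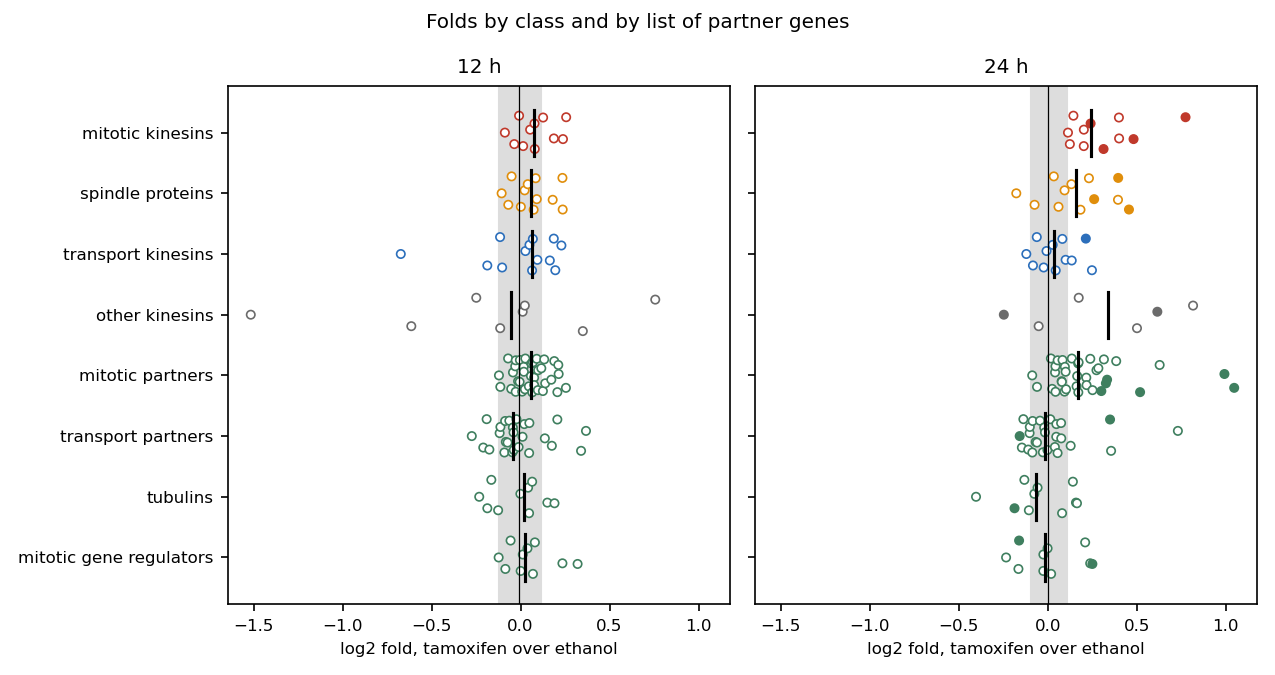
Log2 fold of tamoxifen over ethanol (horizontal axis) of each tested gene, by class and by list of partner genes, at 12 h (left) and 24 h (right). Black ticks are class medians and filled points have an adjusted p under 0.05. The grey band runs from the lower to the upper quartile of all tested genes. At 24 h the medians of mitotic kinesins (0.24), spindle proteins (0.16) and mitotic partners (0.17) lie to the right of the band. So does that of the 6 tested other kinesins (0.34), which takes in genes of low mean.

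Among the other kinesins, the paralogs Kif21a and Kif21b moved in opposite directions at 24 h. Both belong to a family that limits microtubule growth. Kif21b, at chr1:136131389-136177998, had 187 normalised counts in tamoxifen and 122 in ethanol, and in the authors' deposited table a log2 fold of 0.62 (SE 0.13, adjusted p 0.000125, Wald test). Kif21a, at chr15:90933276-91049948, had 484 in tamoxifen and 574 in ethanol, and in the authors' deposited table a log2 fold of -0.25 (SE 0.08, adjusted p 0.0206, Wald test). At 12 h Kif21a had the same fold, -0.25, with an SE of 0.17, and Kif21b stood at -0.11 (SE 0.23) per the authors' deposited table.

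Kif2a, a depolymerase of both spindles and neurons, just missed the threshold. It had 1081 normalised counts in tamoxifen and 958 in ethanol at 24 h, and in the authors' deposited table a log2 fold of 0.17 (SE 0.06, adjusted p 0.0506, Wald test). Its exons share 19.2% of their bases with Dimt1 on the opposite strand. Kif7, a ciliary regulator of Hedgehog signalling, stood at -0.05 (SE 0.13) per the authors' deposited table at 24 h. Kif24, which restrains cilium growth, and Kif9 had 1.69 and 0.72 CPM at 24 h by the authors' deposited table and folds that did not pass. Kif12, whose human gene is linked to cholestatic liver disease, was close to undetected, with means of 2.23 at 12 h and 0.37 at 24 h in the authors' deposited table. Kif6, Kif19a, Kif26a, Kif26b and Kif27 had means under 7 at both times, so nothing can be said of their response.

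**Figure D4:**
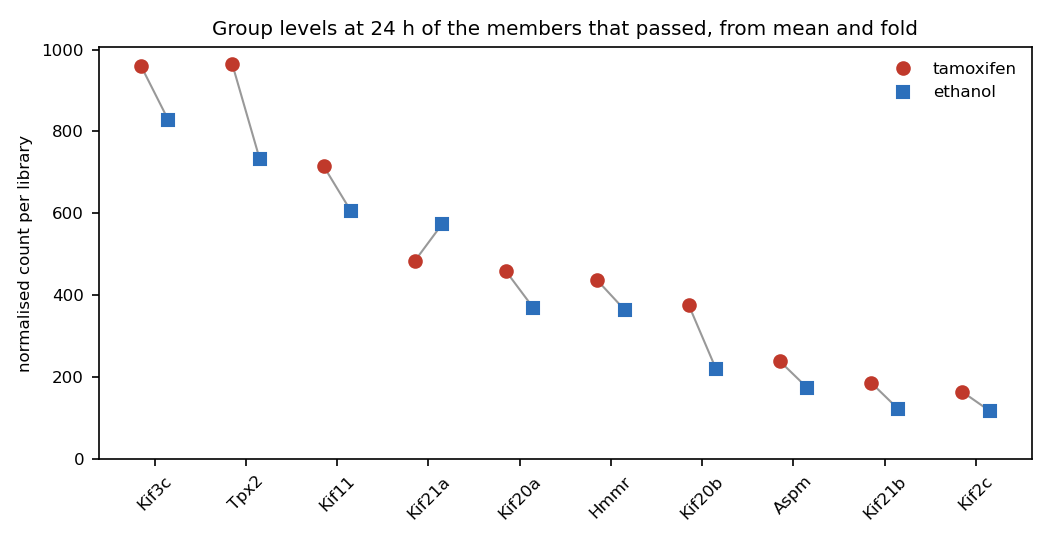
Normalised counts per library (vertical axis, from 0) in tamoxifen (left, circles) and ethanol (right, squares) at 24 h for the 10 members that passed, computed from the authors' mean and fold. Kif20b stands at 377 in tamoxifen and 221 in ethanol, and Kif21a is the 1 gene that is lower in tamoxifen.

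Whether the response itself differed between the times was tested gene by gene. Of 46 members with a p at both times, 0 passed the test of the difference of folds, with a lowest adjusted p of 1.0, beside 0.0134% of 14981 genes. At an unadjusted p under 0.05, which 1.64% of all these genes reached, there were 4 members, all with the higher fold at 24 h: Kif20b, Kif21b, Tpx2 and Racgap1. The difference of log2 folds, 24 h minus 12 h, was 0.78 for Kif20b (SE 0.24, unadjusted p 0.00109, Wald test of the difference). It was 0.73 for Kif21b (SE 0.27), 0.30 for Tpx2 (SE 0.14) and 0.25 for Racgap1 (SE 0.12). The rise at 24 h is therefore not shown to differ from the 12 h value for any member.

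The mitotic kinesins stood lower at 24 h than at 12 h, whichever agent was given. The means cover tamoxifen and ethanol libraries together, the times were normalised separately, and time cannot be told apart from any difference in handling or sequencing, so these are values with no test. As CPM of the normalised counts, the 12 mitotic kinesins together held 930 at 12 h and 291 at 24 h, and the spindle proteins 1534 and 924. The transport kinesins held 1142 at 12 h and 1458 at 24 h. Kif20a was lowest relative to its 12 h level, at 16.9%, and Kif11 highest of the mitotic kinesins, at 55.7%. Of 11 tested mitotic kinesins 10 stood at under 50% of their 12 h level, against 0 of 12 transport kinesins and 10.5% of 11624 genes tested at both times. The median ratio was 32.9% for mitotic kinesins, 49.4% for spindle proteins, 117% for transport kinesins, 120% for other kinesins and 95.4% for all genes.

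**Figure D5:**
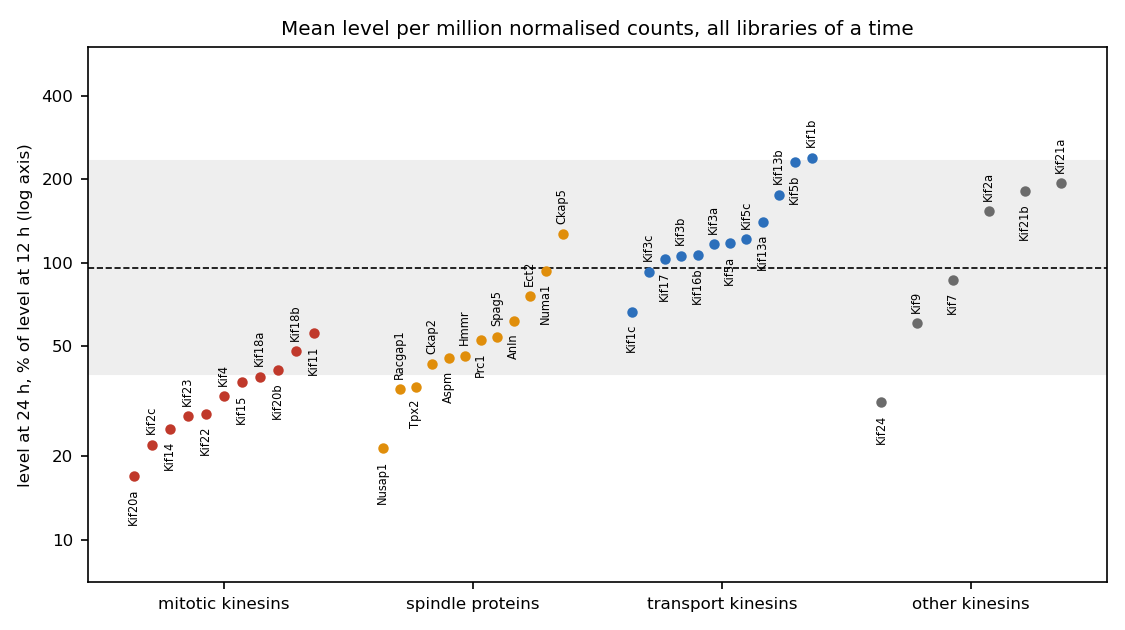
Mean level (CPM) at 24 h as a percentage of that at 12 h (vertical log axis) for the members tested at both times. The dashed line is the median of all genes (95.4%) and the grey band holds the middle 90% of them (39.5% to 233%); mitotic kinesins run from 16.9% to 55.7% and transport kinesins from 66.5% to 239%.

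Levels of different genes were set side by side as CPM per kilobase of exon. At 12 h Kif1c led with 65.9, followed by Kif20a at 47.7, Tpx2 at 43.2 and Kif5b at 31.1. At 24 h Kif5b led with 71.7, ahead of Kif1c at 43.8, Numa1 at 22.2, Kif3a and Ckap5 at 18.2 each, and Kif3b at 16.8. The highest mitotic kinesin at 24 h on this scale was Kif20a at 8.05, and the lowest tested one was Kif18a at 0.54. The level of Kif20a is uncertain at both times, since 29.3% of its exon bases are shared with Cdc23 on the opposite strand. Libraries are not given singly, so neighbours in this order cannot be separated. Ckap5 (126%) and Numa1 (93.6%), which also organise microtubules outside mitosis, stood at 24 h near or above their 12 h level, while Nusap1 stood at 21.4%.

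Partner genes outside the rule were read from lists sorted by role. Of 36 genes that work with the mitotic motors, 6 rose and 0 fell at 24 h by the authors' deposited table, 30 did not pass, and 34 had a positive fold, with a median of 0.17. The shares over all tested genes at 24 h were 5.90% higher, 6.52% lower and 49.9% with a positive fold. The rises included Knstrn, a spindle protein that binds Spag5, at 0.52 (SE 0.14), Dlgap5 of the kinetochore fibres at 0.30 (SE 0.08), and the kinetochore genes Cenpf at 1.05 (SE 0.20) and Cenpe at 0.99 (SE 0.26) per the authors' deposited table. Cenpe is itself a kinesin under another symbol. Relative to genes of similar mean, the SE was 1.79 times as large for Cenpf and 3.18 times for Cenpe. Of 26 tested partners of transport motors, 1 rose and 1 fell, with a median of -0.02, and the counts of this list and of the next 2 are too small to set apart from those shares. They were the minus-end motor Kifc3 at 0.35 (SE 0.08) and the dynein chain Dync1li1 at -0.16 (SE 0.05) per the authors' deposited table. Of 10 tested tubulins 0 rose and 1 fell, Tubb4b at -0.19 (SE 0.06), and the median was -0.07. Of 10 regulators of mitotic gene transcription, the authors' deposited table has 1 that rose and 1 that fell: Rbl2 at 0.25 (SE 0.07) and E2f4 at -0.16 (SE 0.05), both subunits of complexes that repress such genes. At 12 h 0 genes of these 4 lists passed, and at an unadjusted p under 0.05 there was 1, Kifc3, at 0.37 (SE 0.12, adjusted p 0.14, Wald test) per the authors' deposited table.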

How the data were processed

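RNA was read by single-end sequencing of TruSeq RNA v2 libraries, which do not mark strand, in 15 samples grouped by title. Ethanol titles at 12 h are numbered 1, 3 and 4; number 2 was not analysed here. HISAT2, DESeq2 and mm10 are named in the submitters' processing notes, with no roles or versions, with counting tool and design formula not given in the sources used here. Per the file headers, the authors' deposited tables give the mean normalised count (a signal), the log2 fold with its SE, the Wald score, the p-value and its adjusted form. Genes of low mean carry no adjusted p, which leaves 13044 tested at 12 h and 11648 at 24 h.

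Tables of counts were assumed when the tests were written; the tables hold comparisons only, so the authors' Wald test was used. The direction of the folds was checked at 12 h: genes with 1 read fall on 7 means, 3 with negative and 4 with positive folds, as 3 ethanol and 4 tamoxifen libraries require. At 24 h the split is 4 and 4 and does not check it; Klf5 is negative at both times. Size factors of the libraries read from these means were 0.955 to 1.05 and 0.934 to 1.07. Group levels were computed from mean and fold with libraries weighted equally, and carry no spread. No source names molecular identifiers, so reads may include copies of 1 molecule. Intervals are 1.96 SE to each side. SEs were compared with the running median of 201 genes. The difference between times was the difference of folds over its SE, with Benjamini-Hochberg adjustment. Exon lengths, overlaps and positions come from GENCODE on GRCm38, which mm10 names, and promoters from RefSeq on GRCm38.p6. The steps were tested on simulated data whose changes were larger than the folds of the called members. Recovery of smaller folds was not tested. Named genes are all called members, the tested mitotic and transport kinesins and spindle proteins, and up to 4 called partners per list; Klf5 is the check of the target. The other kinesins that did not pass, and Kifc1, Klc1 and Foxm1, were named after their values were seen. Members, classes and lists were chosen with earlier results of these data known. Work was done in Python 3.11.15 with scipy 1.17.1, pandas 2.3.3 and numpy 2.4.6; plots came from matplotlib 3.10.9.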

Additional observations from a re-analysis of the deposited data

How the results depend on the processing

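No paired analysis was possible because the tables carry no values per library, and for the same reason no replicate could be left out and no other normalisation or tool was run. Of 69 values compared with an alternative, 60 kept their count within 1.5 times or moved by less than a typical SE. Some of these could not change, such as the gap of medians under centring and counts of 0 at a stricter threshold. The total therefore overstates how far the results were tried. At an adjusted p under 0.01, 5 members rose and 0 fell at 24 h, with 2 mitotic kinesins (Kif20b and Kif2c) and 1 spindle protein (Tpx2) among the rises. Adjustment over all genes with a p left 1 spindle protein. With Kif12, Kif21a and Kif21b counted as transport kinesins, 2 of these rose and 1 fell. Without Kif3a, Kif3b, Kif3c and Kif17, 0 transport kinesins rose. Without members whose exons overlap another gene over more than 10% of their length, an alternative chosen after seeing the data, 0 transport kinesins rose, and 3 mitotic kinesins did. Another such alternative left out members with an SE over 1.5 times that of similar genes, among them Kif20b. Then 8 members rose at 24 h, of which 3 were mitotic kinesins. The gap of medians between mitotic and transport kinesins at 24 h ranged from 0.19 to 0.26, and centring the folds ended no call. At 12 h the gap was -0.00 to 0.04. Low members such as Kif12 and Kif26b cannot be judged at this depth.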

Other observations

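Motors and light chains whose symbols fall outside the rule were also read, from the partner lists. Kifc1, a minus-end motor that focuses spindle poles, had 338 normalised counts in tamoxifen and 333 in ethanol at 24 h, and its log2 fold in the authors' deposited table was 0.02 (SE 0.11). It thus had a smaller fold than any of the 11 tested mitotic kinesins. Kifc3, a minus-end motor of cell junctions, had 1530 in tamoxifen and 1200 in ethanol at 24 h, and 3731 in tamoxifen and 2892 in ethanol at 12 h, the same direction at both times. Klc1, a cargo-binding light chain of the conventional kinesin, had 1073 in tamoxifen and 1179 in ethanol at 24 h, with a log2 fold of -0.14 (SE 0.07, adjusted p 0.18, Wald test) in the authors' deposited table. Foxm1, an activator of late cell cycle genes, had 479 in tamoxifen and 414 in ethanol at 24 h, with a log2 fold of 0.21 (SE 0.08, adjusted p 0.0722, Wald test) in the authors' deposited table.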
